A study of Mus musculus with 23 samples.

Results

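Epididymal fat was compared between mice bearing a KPC tumor and mice bearing a KPC IL6KO tumor, to ask which transcripts of the fat pad differ with IL-6 made by the tumor cells. The comparison used the 4 libraries of each tumor group, chosen by tissue and group, so 8 of the 23 libraries of the series. KPC cells came from the pancreatic tumor of 1 male mouse carrying Trp53R172H and Pdx1-Cre, in which Cre is active in pancreatic lineage cells. The KPC group received 1 clone of these cells that had gone through CRISPR/Cas9 transfection without an Il6 guide, and the KPC IL6KO group received 1 clone whose Il6 gene carried an insertion. Differences between the tumor groups are therefore differences between 2 clones, and the part of the clone cannot be told apart from that of Il6. Cells were placed in the pancreas of male C57BL/6J mice 8 weeks of age. The Il6 gene of these hosts was not edited, so their own cells could make IL-6 in every group. The 4 no tumor mice had sham surgery and serve as the background level. All levels are CPM, counts scaled to a common library size after TMM normalization, and replicates carry the numbers 5 to 8 of their labels. Counts per library ranged from 26306377 to 56308545, and 3 counts, the limit used for detection, corresponded to between 0.0474 and 0.123 CPM (counting error only).

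IL-6 signals through its receptor chain Il6ra, or a soluble form of it, and the shared chain Il6st (gp130), which activates JAK kinases and the transcription factor STAT3. STAT3 induces its own inhibitor Socs3 and, mostly in liver, acute phase proteins. White fat stores triglyceride, which lipases such as Pnpla2 (ATGL) and Lipe (hormone-sensitive lipase) release, and it also houses macrophages, dendritic cells and stromal progenitors. Dendritic cells and other antigen-presenting cells display peptides on MHC class II molecules, whose α and β chains are encoded by the neighbouring genes H2-Aa, H2-Ab1 and H2-Eb1. The epididymal pad lies against the epididymis, the duct in which sperm mature, and its RNA can carry that tissue.

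Some promoters are shown because the results below turn on their genes. The MHC class II promoters of H2-Aa (chr17:34287774-34288073, minus strand) and H2-Eb1 (chr17:34305617-34305916, plus strand) are printed 5′ to 3′ on the coding strand from 250 bases before to 50 after the transcription start (RefSeq, GRCm38.p6). Capitals mark the Y box, searched as CTGATTGG on both strands, an element that the factor NF-Y binds in these genes. In H2-Aa 43 bases lie between it and the start and in H2-Eb1 54 bases, and 4.1% of all 32851 promoters of this length hold it.

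H2-Aa: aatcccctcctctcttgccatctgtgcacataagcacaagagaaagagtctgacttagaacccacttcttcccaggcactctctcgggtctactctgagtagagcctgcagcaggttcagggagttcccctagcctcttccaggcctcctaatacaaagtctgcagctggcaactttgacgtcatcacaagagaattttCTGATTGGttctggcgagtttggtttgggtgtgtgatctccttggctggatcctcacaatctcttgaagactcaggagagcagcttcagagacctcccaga
H2-Eb1: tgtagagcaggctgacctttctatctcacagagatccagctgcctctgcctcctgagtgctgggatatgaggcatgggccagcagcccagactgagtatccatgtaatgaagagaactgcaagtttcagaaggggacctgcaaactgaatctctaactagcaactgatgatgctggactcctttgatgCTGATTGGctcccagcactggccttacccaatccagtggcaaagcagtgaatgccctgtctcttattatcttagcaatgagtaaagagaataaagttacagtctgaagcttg

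The promoter of the STAT3 target Socs3 (chr11:117969317-117969616, minus strand, same window and source) is shown with its STAT motif, searched as TTCNNNGAA, in capitals. Between the motif and the start lie 145 bases. It occurs in 8.3% of all promoters and in 7 of the 84 promoters (8.33%) that matched 72 of the 98 genes named by rule or added, so the shares were alike.

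Socs3: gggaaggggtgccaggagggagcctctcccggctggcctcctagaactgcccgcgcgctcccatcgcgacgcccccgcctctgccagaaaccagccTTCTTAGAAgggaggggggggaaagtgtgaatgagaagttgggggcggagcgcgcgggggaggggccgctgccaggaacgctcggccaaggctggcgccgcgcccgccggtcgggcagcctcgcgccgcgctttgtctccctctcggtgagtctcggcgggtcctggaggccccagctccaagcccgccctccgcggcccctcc

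The pads differed in how much adjoining tissue they held. Gpx5, an antioxidant enzyme secreted by the proximal epididymis, was at 28239, 40388, 24600 and 21347 CPM in KPC 5 to 8, and at 85.8, 54957, 4.69 and 5.65 CPM in KPC IL6KO 5 to 8. It was thus abundant in every KPC pad but only in pad 6 of the KPC IL6KO group, and in no tumor pads it was at 39292, 52.2, 34256 and 4.81 CPM. All 27 genes on the proximal epididymis list together took 5.2% to 8.55% of the counts in KPC and 0.0495%, 10.5%, 0.541% and 0.287% in KPC IL6KO 5 to 8. The 11 measured distal epididymis genes took 0.156% to 1.04% in KPC and 0.212% to 2.52% in KPC IL6KO, and the groups overlapped. The values of Gpx5 did not separate the groups either (2-sided exact permutation test of log2 CPM, p = 0.143).

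Skeletal muscle genes, by contrast, did not overlap between the tumor groups. Their 11 measured members took 0.000656% to 0.000968% of the counts in KPC against 0.0122%, 0.02%, 0.0497% and 0.318% in KPC IL6KO 5 to 8, and 0.00089% to 0.0384% in no tumor. Myh4, the fast IIb myosin heavy chain, was at 0 to 0.228 CPM in KPC and at 2.87, 82, 177 and 811 CPM in KPC IL6KO 5 to 8. Smooth muscle genes took 0.0331% to 0.11% in KPC and 0.0507% to 0.607% in KPC IL6KO. Of 24 pancreatic genes, acinar and endocrine, only 1 was in the table, from which genes of few counts were already absent by a rule not stated.

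Adipocyte transcripts had lower values in the KPC pads. Adipoq, which encodes adiponectin and is made by adipocytes, was at 324, 323, 251 and 189 CPM in KPC and at 387, 492, 1649 and 682 CPM in KPC IL6KO, so no values overlapped (log2 difference -1.56 ± 0.78 SE; exact permutation p = 0.0286, the smallest that 4 against 4 allows). In no tumor pads it ranged from 123 to 2830 CPM, wider than either tumor group. In bulk tissue, fewer adipocytes, less RNA per adipocyte and more RNA of adjoining tissue cannot be told apart. Adipoq, Plin1 and Cidec were lower where Gpx5 was higher (Pearson's r over the 12 libraries was -0.737, -0.716 and -0.692). Their mean log2 CPM was 8.08 and 6.46 in the Gpx5-rich no tumor pads 5 and 7. It was 11.1 and 9.32 in no tumor pads 6 and 8. In KPC IL6KO 6, also rich in Gpx5, it was 8.49, within the 8.13 to 10.3 of its group's other pads. With the epididymis shares as covariates the difference of Adipoq was -0.70. Genes of adjoining tissue were therefore set apart before the rest were described. A gene was set apart if it was on a list of epididymis, testis, pancreas, epithelium, mesothelium, muscle or liver genes, or if its level ranged over 8-fold or more among the 4 no tumor pads. This removed 2875 of 16962 genes. The second criterion also took many genes of fat itself. It took 16 of 26 adipocyte identity genes, 19 of 32 lipolysis genes, 8 of 24 fatty acid synthesis genes and 7 of 27 macrophage genes. Counts without the genes set apart therefore leave out many fat genes too. They also keep genes of other tissue that neither criterion took, such as Pygm and Lmod1 of muscle. Itgae and Pdgfra, which followed Gpx5 over the 12 libraries (Pearson's r = 0.894 and 0.912), were not taken either. Nnat, Retnla and Sncg, which are known from fat, were among those taken, and these are described below with the other genes.

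**Figure D1:**
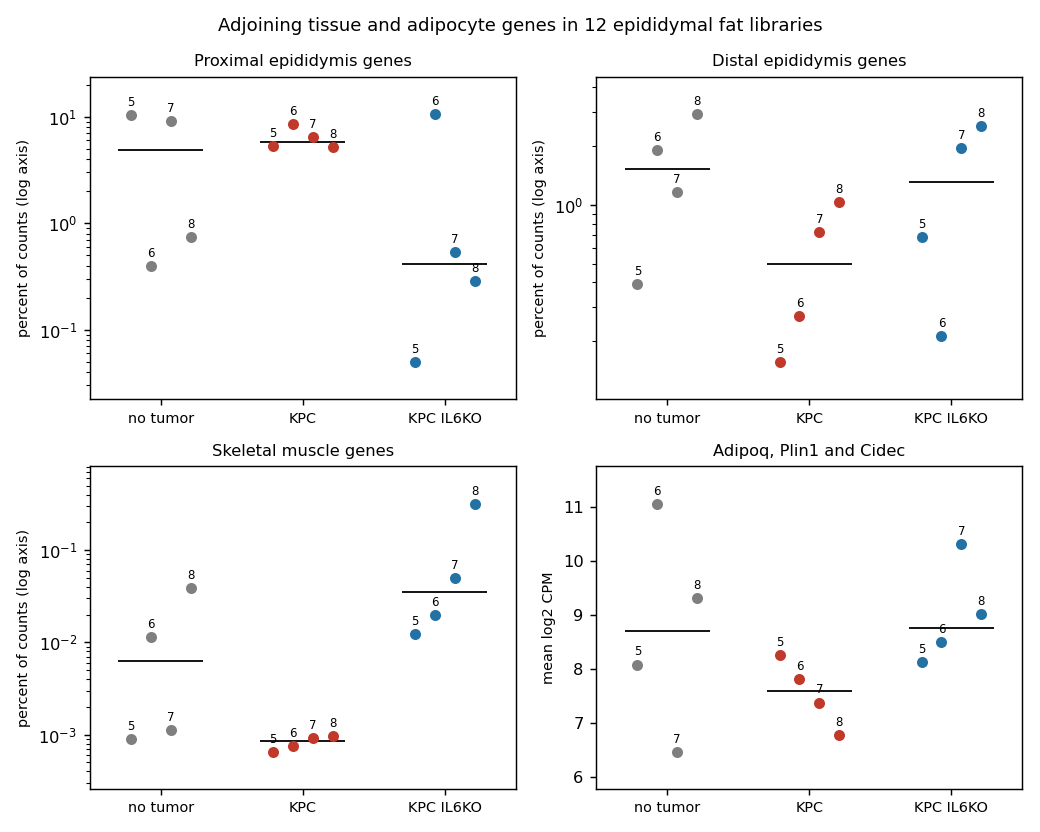
Percent of counts on genes of the proximal epididymis, distal epididymis and skeletal muscle (log axes), and mean log2 CPM of Adipoq, Plin1 and Cidec, in each of the 12 fat libraries. Points are libraries with their replicate numbers and lines are group medians. All 4 KPC pads and KPC IL6KO 6 were high in proximal epididymis genes, and all KPC pads were below all KPC IL6KO pads in skeletal muscle genes.

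No gene was called between KPC and KPC IL6KO fat by edgeR's quasi-likelihood test at an FDR of at most 0.05 and a fold change of at least 1.5, which is 0% of 16962 genes in either direction. The lowest FDR was 0.535, and it was shared by Penk, Tff2, Sfrp4 and Gdf10 among others. At an unadjusted p under 0.05, 132 genes (0.778%) were higher and 930 (5.48%) lower in KPC. The edgeR likelihood ratio test called 7 genes higher (0.0413%) and 59 lower (0.348%), and DESeq2 called 19 higher (0.112%) and 106 lower (0.625%). The values of the groups did not overlap for 108 genes higher (0.637%) and 626 lower (3.69%) in KPC. Without the genes set apart, the likelihood ratio test called 5 higher and 31 lower and DESeq2 15 higher and 66 lower, and both tests shared 5 and 30 of these. The muscle gene Pygm was still among the lower genes of both tests, so these counts are not free of adjoining tissue. The median log2 difference of all genes was -0.05. Without KPC IL6KO 6 the counts at an unadjusted p under 0.05 were 948 higher and 1325 lower, and still no gene was called. With the epididymis shares as covariates the counts were 855 higher and 1111 lower of 16962 genes, again with no gene called. These are the background for the list counts given under that fit. In what follows each difference is KPC minus KPC IL6KO on the log2 scale with its SE from the quasi-likelihood fit, and none of them reached its FDR.

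MHC class II genes were lower in KPC fat. H2-Ab1, the β chain of I-A, was at 26.3, 37, 52.5 and 33.6 CPM in KPC 5 to 8 and at 195, 76, 210 and 179 CPM in KPC IL6KO 5 to 8. The groups did not overlap, and the lowest KPC IL6KO value belonged to pad 6, the pad of that group rich in epididymis. No tumor pads were at 59.4, 181, 48.4 and 107 CPM and overlapped with both tumor groups. The difference was -2.15 ± 0.45, a 4.42-fold lower level (quasi-likelihood FDR 0.535, likelihood ratio FDR 0.00613, DESeq2 FDR 0.00292). Its partner H2-Aa was at 35.8 to 75.7 CPM in KPC against 114 to 302 CPM in KPC IL6KO (-2.06 ± 0.46; likelihood ratio FDR 0.0121). H2-Eb1, the β chain of I-E, was at 21.2 to 50.3 CPM against 74.4 to 214 CPM (-2.18 ± 0.48; likelihood ratio FDR 0.00958). Cd74, the invariant chain that escorts class II molecules, was at 72 to 134 CPM against 180 to 553 CPM (-2.09 ± 0.46; likelihood ratio FDR 0.0121). All 4 genes thus had similar differences. Adipocyte content was taken as the mean log2 CPM of Adipoq, Plin1 and Cidec. With this covariate the difference of H2-Ab1 was -1.61 (quasi-likelihood FDR 0.607), and with the epididymis shares as covariates it was -1.23, smaller in both fits and in the same direction. Over the 12 libraries H2-Ab1 was lower where Gpx5 was higher (Pearson's r = -0.859 on log2(CPM + 0.1), a description over pads that share tissue content).

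The dendritic cell list, which holds H2-Ab1, H2-Aa and Cd74 among its 13 genes, had 12 members lower in KPC. Of the 13, 6 did not overlap between the groups and 9 had an unadjusted p under 0.05, all lower in KPC. The median difference of the 13 was -1.69. Of all 16962 genes, 3.69% were lower without overlap and 5.48% were lower at that p. The likelihood ratio test called 3 of the 13, which were H2-Ab1, H2-Aa and Cd74, and DESeq2 called 4. With epididymis covariates the median of the list was -0.85 and 4 members had an unadjusted p under 0.05, and with the adipocyte covariate the median was -1.47 with 5 such members. Of all 16962 genes, 1111 and 764 were lower at that p in these fits, in that order. Xcr1, the receptor of cross-presenting dendritic cells, was at 0 to 0.472 CPM in KPC and 0.686 to 2.11 CPM in KPC IL6KO (-2.81 ± 0.91). Clec9a, which senses dead cells in the same subset, was at 0 to 1.15 CPM against 2.37 to 3.68 CPM (-2.42 ± 0.91). Cd83, a maturation marker, was at 1.95 to 2.72 CPM against 5.18 to 14.9 CPM (-1.82 ± 0.5). Ciita, the coactivator that switches on MHC class II transcription, was at 0.847, 3.32, 3.34 and 2.44 CPM in KPC and 11.7, 3.33, 10.4 and 13.6 CPM in KPC IL6KO, so the groups met at KPC IL6KO 6 (-1.97 ± 0.57; quasi-likelihood FDR 0.664). Itgae, also on the list, was the member with the highest difference (0.53 ± 0.75), and like Gpx5 it was lower in KPC IL6KO 5, 7 and 8 (8.61, 9.95 and 5.1 CPM) than in pad 6 (58.9 CPM).

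Jchain, which links antibody chains in plasma cells, was at 2.28 to 5.26 CPM in KPC and at 44.6, 6.79, 26 and 27.3 CPM in KPC IL6KO (-2.92 ± 0.66; likelihood ratio FDR 0.012). Among 16 NK and T cell genes the median was -0.66, 3 did not overlap and all 3 were lower in KPC, namely Klrk1, Nkg7 and Cd4, with 0.286 to 0.91 CPM for Cd4 in KPC and 1.1 to 2.56 CPM in KPC IL6KO. Klrb1c, usually read as the NK cell marker NK1.1, was at 87.4 to 157 CPM in KPC and at 1.06, 481, 1.25 and 0.886 CPM in KPC IL6KO. It followed Gpx5 over the 12 libraries (Pearson's r = 0.962 on log2(CPM + 0.1), a description over pads that share tissue content), whereas Ncr1, an NK cell receptor, was at 0 to 0.674 CPM and 0.466 to 0.743 CPM. Mast cell and eosinophil genes had a median of -1.23 over 9 genes, 4 of them with an unadjusted p under 0.05 and lower in KPC (the mast cell proteases Cma1, Mcpt4 and Tpsb2, and Gata2). The proteases were lower where Gpx5 was higher (Pearson's r over the 12 libraries was -0.945 for Cma1, -0.893 for Tpsb2 and -0.87 for Mcpt4), and with epididymis covariates the median of the list was -0.12 and 0 members had an unadjusted p under 0.05. Interferon-inducible genes were lower in 24 of 25 cases, with a median of -0.71, 4 without overlap and 7 with an unadjusted p under 0.05, and the median was -0.32 with 2 such members with epididymis covariates. These 2 of 25 are near the share of all genes in that fit, 1111 lower of 16962. Without covariates, 3.69% of all genes were lower without overlap and 5.48% were lower at that p. Irf7, a regulator of interferon responses, was at 18.1 to 25.6 CPM in KPC and 27 to 49.2 CPM in KPC IL6KO (-0.71 ± 0.22).

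Macrophage genes split. Retnla, a product of alternatively activated macrophages in fat, was at 15.7 to 25.7 CPM in KPC and 56.3 to 301 CPM in KPC IL6KO (-2.78 ± 0.67; likelihood ratio FDR 0.0157), but it was among the genes set apart because it ranged from 36.4 to 350 CPM in no tumor pads. Marco, a scavenger receptor, was at 89.6, 20.2, 10 and 12.2 CPM in KPC and at 2.6, 0.583, 12 and 13.3 CPM in KPC IL6KO (2.21 ± 0.99; quasi-likelihood FDR 0.79). Adgre1, which encodes F4/80, was at 30.2 to 48.6 CPM against 18.6 to 167 CPM and overlapped. Over the 27 macrophage genes the median was -0.27, and 3 did not overlap, all lower in KPC, against 3.69% of all genes. The direction of the list turned with covariates, to a median of 0.14 with adipocyte content and of 0.91 with the epididymis shares, where 8 members were higher and 1 lower at an unadjusted p under 0.05. Of all 16962 genes 855 were higher and 1111 lower at that p with the epididymis shares. Of the 14 neutrophil genes none separated the groups (median -0.25, and 1.72 with epididymis covariates), and S100a8 was at 4.16 to 12.2 CPM in KPC and 0.206 to 7.03 CPM in KPC IL6KO (1 ± 1.04).

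**Figure D2:**
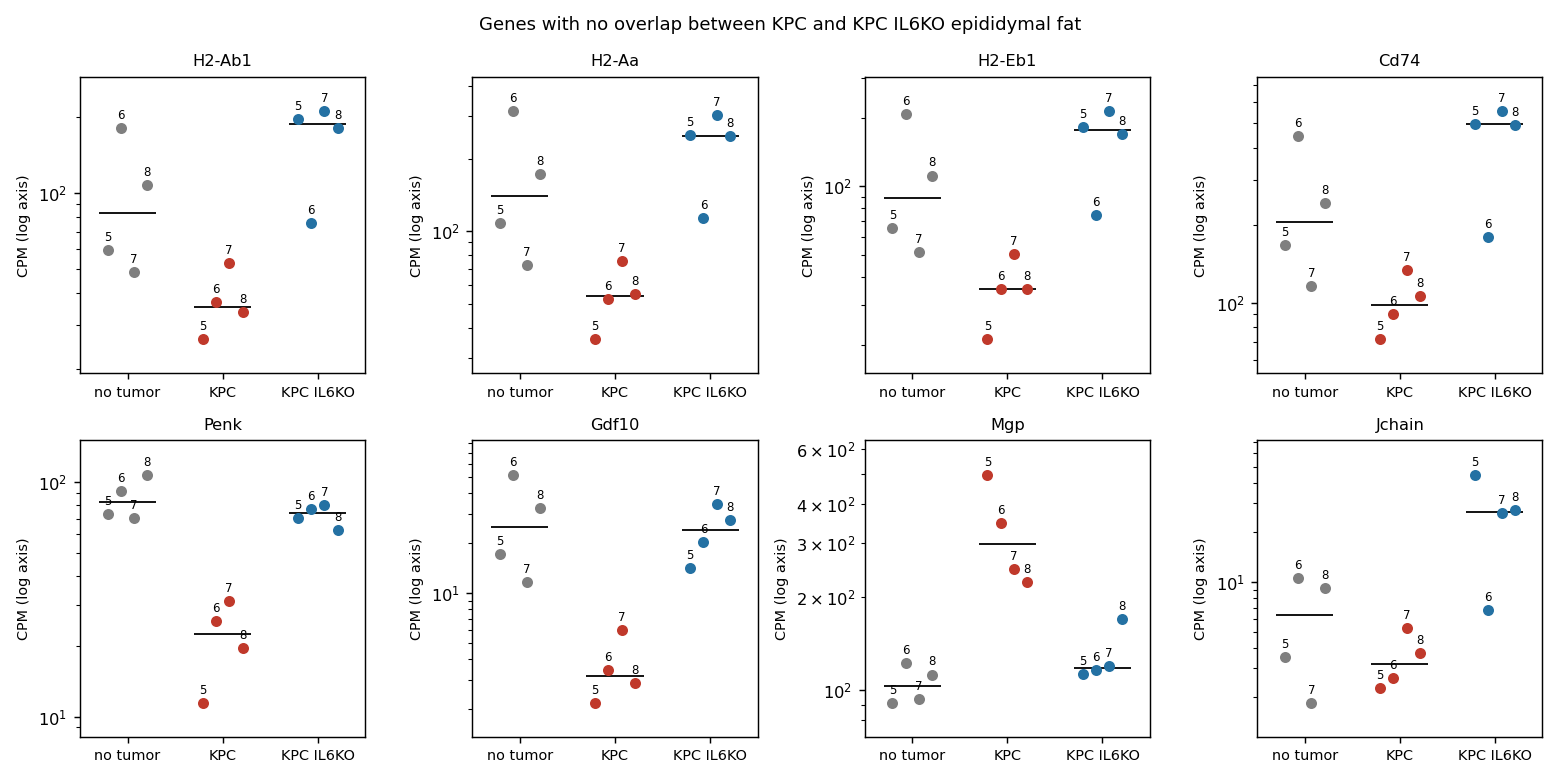
CPM (log axis) of the MHC class II genes H2-Ab1, H2-Aa, H2-Eb1 and Cd74 and of Penk, Gdf10, Mgp and Jchain in the 12 fat libraries, each point being 1 mouse with its replicate number and each line a group median. KPC and KPC IL6KO pads do not overlap for any of the 8 genes, and KPC IL6KO 6 is the lowest of its group for the MHC class II genes and Jchain.

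Stromal genes included the gene with the lowest p of the comparison. Penk, which encodes the enkephalin precursor and is known in fat from stromal cells, was at 11.5, 25.5, 31.3 and 19.6 CPM in KPC and at 70.6, 77.3, 79.7 and 62.7 CPM in KPC IL6KO. The KPC IL6KO values, pad 6 included, lay within or near the 70.6 to 108 CPM of no tumor pads. The difference was -1.72 ± 0.27 (quasi-likelihood FDR 0.535, likelihood ratio FDR 0.000321, DESeq2 FDR 3.61e-05), and it was -1.63 and -1.72 with the adipocyte and epididymis covariates. Penk was named after its values were seen. Gdf10, a growth factor of the TGFβ family, was at 2.19 to 5.96 CPM in KPC and 14.1 to 34.3 CPM in KPC IL6KO (-2.73 ± 0.51; likelihood ratio FDR 0.00114). Sfrp4, a secreted inhibitor of Wnt signaling that was also named after its values were seen, was at 0.0573 to 0.303 CPM against 1.23 to 6.85 CPM (-4.46 ± 0.82; likelihood ratio FDR 0.000939). Sult1e1, the estrogen sulfotransferase, was at 3.18 to 8.52 CPM against 14.8 to 96.5 CPM (-2.89 ± 0.57; likelihood ratio FDR 0.0015). Pi16 and Dpt, which mark fibroblast progenitors, had no overlap and were lower in KPC (-2.11 ± 0.69 and -2.02 ± 0.62) without reaching an FDR of 0.05 in any test, and Dpt was among the genes set apart. Both were lower where Gpx5 was higher (Pearson's r over the 12 libraries was -0.848 for Pi16 and -0.826 for Dpt). The 14 fibroblast progenitor genes as a list had a median of 0.11 and only Pi16 separated the groups. Dpt was on the extracellular matrix list, whose 29 genes had a median of -0.31, and of 1.15 with epididymis covariates. In that fit 13 of them were higher and 1 lower at an unadjusted p under 0.05, against 855 and 1111 of all 16962 genes. Others of the 10 largest differences without overlap were Pnpla3, Pygm, D430019H16Rik, Hpgd, Pitpnm3, Gata2 and Lmod1. Pygm, the muscle glycogen phosphorylase, and Lmod1, a leiomodin of smooth muscle, are muscle genes that the lists did not hold.

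Few genes were higher in KPC fat. Mgp, the matrix Gla protein that inhibits calcification, was at 497, 348, 247 and 224 CPM in KPC and at 113, 116, 120 and 170 CPM in KPC IL6KO, where it resembled the 91.3 to 123 CPM of no tumor pads. The difference was 1.34 ± 0.26 (likelihood ratio FDR 0.015, DESeq2 FDR 0.000378). Calca, the calcitonin gene, was at 9.3 to 38.4 CPM in KPC and 1.23 to 7.29 CPM in KPC IL6KO (2.4 ± 0.63; DESeq2 FDR 0.0203, likelihood ratio FDR 0.0633). Cemip, which degrades hyaluronan, was at 13.7 to 29.6 CPM against 1.63 to 10.4 CPM (2.04 ± 0.54; DESeq2 FDR 0.024), and its KPC values overlapped with the 7.37 to 15 CPM of no tumor pads. Serpina3g, a serine protease inhibitor, was at 7.35 to 27 CPM against 2.78 to 7.17 CPM (1.34 ± 0.56). The other genes named by the same rule were Angptl7, Slc25a34, Slc6a12, Cadm4, Pla2g7 and Dbndd1, with differences from 1.24 to 2.19. Akr1c18, a steroid-metabolizing reductase below the level that the rule required, was at 14.5, 6.39, 2.66 and 2.5 CPM in KPC and at most 0.489 CPM in KPC IL6KO and 0.409 CPM in no tumor (likelihood ratio FDR 0.000403).

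Tff1 and Tff2, on the list of gastric and ductal epithelium, were higher in all 4 KPC pads than in any KPC IL6KO pad. Tff2, a trefoil peptide secreted by mucous epithelium, was at 3.71, 3.47, 49.2 and 38.7 CPM in KPC, where the pads held 2897 counts in all and at least 121 each. In the KPC IL6KO pads it had 4 counts in all and in the no tumor pads 6. The summed CPM of KPC was 762 times that of KPC IL6KO (95% exact interval 297 to 2800, counting error only). Tff2 was called by the likelihood ratio test (FDR 0.000181), by DESeq2 (FDR 2.18e-08) and by edgeR's newer quasi-likelihood fit (FDR 0.0341). Tff1, a trefoil peptide of the stomach surface, was at 8.41, 2.66, 10.7 and 19.3 CPM in KPC with 20 counts in all in KPC IL6KO, a ratio of 67.9 (95% exact interval 43.8 to 112). Pax6, a transcription factor of endocrine pancreas and eye that was named after its values were seen, was at 1.75, 0.687, 1.35 and 4.94 CPM in KPC and had 0 counts in every KPC IL6KO pad. The lower end of the 95% exact interval of its ratio was 78.2 (counting error only). No tumor pads held 26 counts of Pax6. Of the 26 genes on the epithelial list, 17 were higher in KPC, Tff1 and Tff2 had no overlap, and the median difference was 0.29. The list as a whole took 0.19% to 0.475% of the counts in KPC and 0.127% to 0.558% in KPC IL6KO, so it overlapped, and whether tumor cells had reached the pads was not tested.

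Adipocyte genes were lower in KPC by their levels. Of 26 adipocyte identity genes 23 were lower, 8 did not overlap, all lower in KPC, and the median was -0.91. Of all genes 3.69% were lower without overlap. The medians were -0.63 over 32 lipolysis genes, -0.39 over 24 fatty acid synthesis genes and -0.53 over 17 thermogenic genes. With epididymis covariates they were -0.39, -0.05, -0.49 and -0.54 for adipocyte identity, lipolysis, fatty acid synthesis and thermogenic genes. At an unadjusted p under 0.05, 2 adipocyte identity genes were lower in that fit and 8 without covariates. These counts were 2 and 5 for lipolysis genes, 5 and 2 for fatty acid synthesis genes, and 1111 and 930 of all 16962 genes. With the adipocyte covariate the medians were -0.02 for adipocyte identity, 0.31 for lipolysis, 0.0019 for fatty acid synthesis and -0.11 for thermogenic genes. Adipoq, Plin1 and Cidec, which make up this covariate, are members of the adipocyte identity and lipolysis lists. How far these medians moved was therefore partly fixed by the choice of covariate. Because levels of adipocyte transcripts differed, each gene was also set against the mean log2 CPM of Adipoq, Plin1, a lipid droplet coat protein, and Cidec, a droplet fusion protein. The choice of this reference was made after seeing the data. On this scale 25 of 76 measured fat metabolism genes were higher in KPC without overlap and 4 lower (each with exact permutation p = 0.0286, Benjamini-Hochberg adjusted p = 0.0749, so none passed), and the median difference was 0.93. The reference itself was 1.43 lower in KPC on the log2 scale (a difference of -1.43), so a gene whose CPM did not differ scores higher in KPC by that amount. Among all 13793 genes at the same minimum mean level (log2 CPM of 1), 21.4% were higher without overlap and 0.131% lower, with a median of 1.42.

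The 4 genes lower in KPC against the reference were Nnat, Pnpla3, Adrb3 and Lgals12. Nnat, which encodes neuronatin, a small membrane protein of the endoplasmic reticulum, had relative levels of -7.25, -3.42, -3.07 and -3.72 in KPC 5 to 8 and of -0.78, -1.14, -0.45 and -1.36 in KPC IL6KO 5 to 8. The KPC IL6KO pads lay at the same level as the no tumor pads (-1.51 to -0.18), pad 6 included. In CPM Nnat was at 1.96, 21, 19.6 and 8.23 in KPC and 163, 162, 933 and 200 in KPC IL6KO (-4.84 ± 1.15; likelihood ratio FDR 0.00665). Pnpla3, a lipid droplet protein induced by feeding and insulin, had relative levels of -8.5, -4.29, -4 and -5.36 in KPC and -2.73, -0.87, -1.78 and -2.45 in KPC IL6KO, within the -3.15 to -1.29 of no tumor apart from pad 6. In CPM it was at 0.788 to 11.4 in KPC and 42.1 to 372 in KPC IL6KO (-4.81 ± 1.02; likelihood ratio FDR 0.0015). Adrb3, the β3-adrenergic receptor through which catecholamines start lipolysis, differed by -1.98 on the relative scale, and KPC 5 was at -5.92 against -2.09 to -2.83 in the other KPC pads. Lgals12, a galectin of lipid droplets, differed by -0.87. KPC 5 was the lowest pad for all 4 genes.

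For the lipases the relative level followed the shift of the scale in direction. Pnpla2 was at 1.75, 0.71, 0.62 and 0.69 relative to the reference in KPC, at -0.28 to -0.03 in KPC IL6KO and at -0.32 to 0.53 in no tumor. Lipe was at 0.07 to 0.81 in KPC and -0.14 to -0.06 in KPC IL6KO. In CPM both genes overlapped between the tumor groups (-0.24 ± 0.84 and -1.06 ± 0.82). Lep, which encodes leptin, was at 10.7, 76.1, 13.8 and 4.26 CPM in KPC and 25.3, 82.4, 423 and 69.7 CPM in KPC IL6KO, while no tumor pads had 70.2 to 948 CPM. On the relative scale Lep overlapped (-1.15, exact permutation p = 0.229). Pparg, the master regulator of fat cell identity (-0.86 ± 0.65), Fasn, the fatty acid synthase (-1.17 ± 0.64), and Pck1, which supplies glycerol for triglyceride (-1.38 ± 0.93), differed by less than 2 SE. Ucp1, the uncoupling protein of thermogenic fat, was at 0.065 to 1.52 CPM in KPC and at 33.2 CPM in KPC IL6KO 8 but 0.0982 to 0.862 CPM in the other pads of that group.

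With adipocyte content as a covariate in the fit of all genes, again no gene was called. At an unadjusted p under 0.05, 319 genes (1.88%) were higher and 764 (4.5%) lower in KPC. The gene with the lowest p of that fit was Sncg, γ-synuclein, an adipocyte-rich gene (-2.05, quasi-likelihood FDR 0.543), which in CPM was at 5.07 to 11.7 in KPC and 45.9 to 373 in KPC IL6KO. Nnat (-3) and Pnpla3 (-3.68), both at a quasi-likelihood FDR of 0.628, kept their direction.

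**Figure D3:**
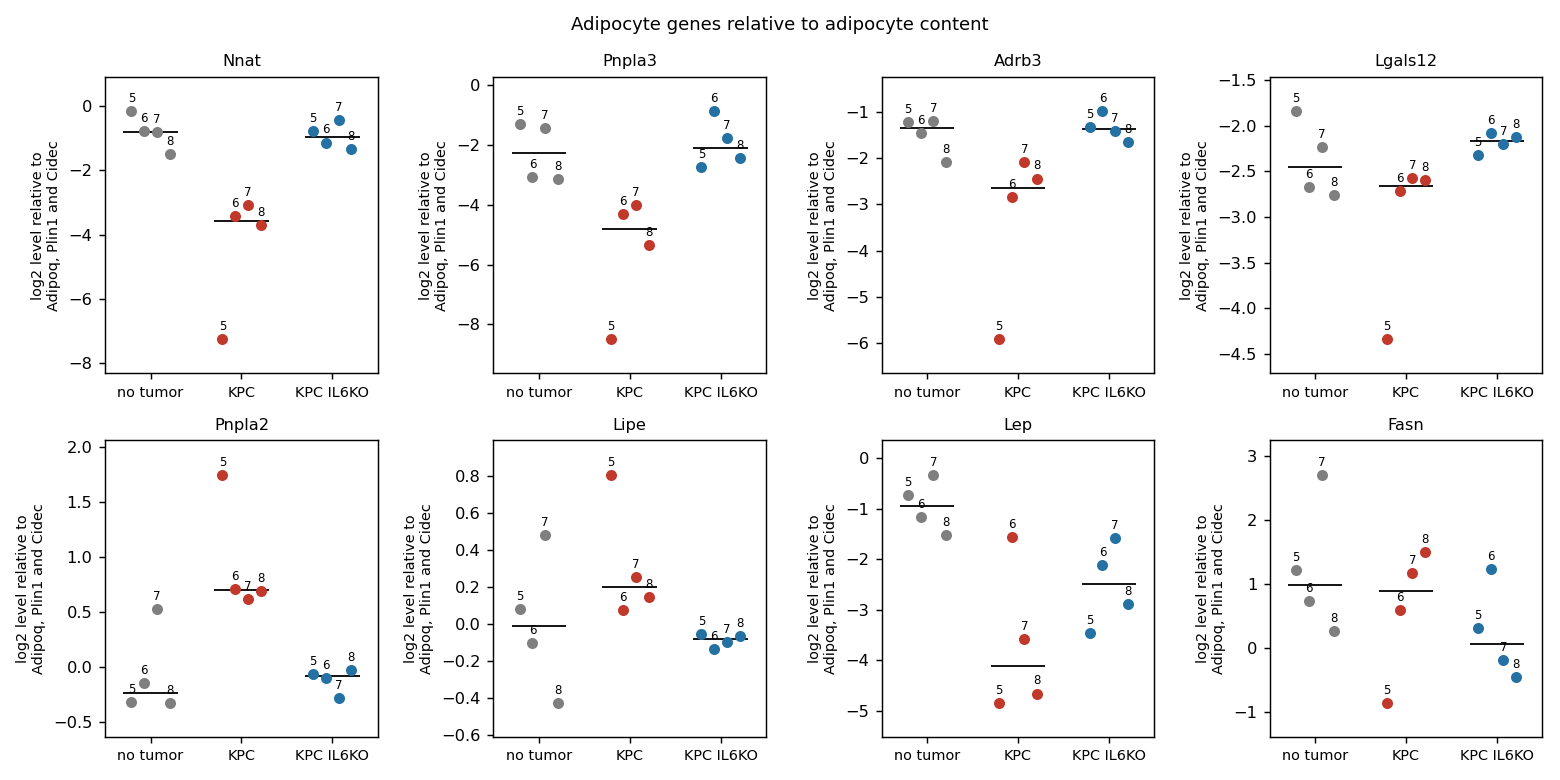
Log2 level of 8 fat genes relative to the mean log2 CPM of Adipoq, Plin1 and Cidec in each fat library, by group with replicate numbers and group medians (lines). KPC pads lie below KPC IL6KO pads for Nnat, Pnpla3, Adrb3 and Lgals12, above them for Pnpla2 and Lipe, and among them for Lep and Fasn.

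The IL-6 gene, its receptor chains, Stat3 and Socs3 overlapped between the tumor groups. Il6 itself was at 3.97, 5.3, 2.19 and 2.02 CPM in KPC and at 4.66, 0.0343, 0.267 and 4.77 CPM in KPC IL6KO, against at most 0.0632 CPM in no tumor. Il6 transcript was therefore present in fat of 2 mice bearing the Il6-edited clone (pads 5 and 8) within the range of KPC fat. Il6ra was at 16.4 to 23.2 CPM in KPC and 19.2 to 26.4 CPM in KPC IL6KO (-0.25 ± 0.22), and Il6st was at 170 to 293 CPM and 164 to 346 CPM (-0.44 ± 0.34). Stat3 was at 403, 221, 168 and 187 CPM in KPC and 225, 202, 237 and 257 CPM in KPC IL6KO (0.09 ± 0.28). Socs3, whose promoter is printed above, was at 91.2, 54.1, 41.9 and 45.1 CPM in KPC and at 75.8, 8.61, 29.4 and 75.8 CPM in KPC IL6KO, both far over the 2.29 to 4.43 CPM of no tumor pads (0.29 ± 0.56). KPC IL6KO 6 was the lowest of its group for Il6, Socs3 and Bcl3, an IκB family member induced by STAT3 (11.7 to 14.7 CPM in KPC and 5.18 to 41.6 CPM in KPC IL6KO). Of 17 IL-6 family ligand and receptor genes none separated the groups and 1 had an unadjusted p under 0.05 (Il27ra, lower in KPC), and their median was -0.3. Of 28 JAK-STAT3 genes 3 did not overlap, all lower in KPC (the kinase Tyk2, Stat5a and the phosphatase Ptpn11). The median of the 28 was -0.11, and 0 were higher and 5 lower at an unadjusted p under 0.05. Of all genes, 3.69% were lower without overlap and 5.48% were lower at that p. With epididymis covariates the median of the JAK-STAT3 list turned to 0.24 and that of the IL-6 family to 0.09. In that fit 6 JAK-STAT3 genes were higher and 0 lower at an unadjusted p under 0.05. Among all 16962 genes 855 were higher and 1111 lower at that p with these covariates. In that fit the difference of Socs3 was 1.89 (quasi-likelihood FDR 0.227) and that of Il6 4.49 (quasi-likelihood FDR 0.37).

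Acute phase genes gave a mixed picture. Serpina3n, a protease inhibitor, was at 3600, 1095, 505 and 434 CPM in KPC and 322, 234, 896 and 952 CPM in KPC IL6KO (1.23 ± 0.88). Saa3, the serum amyloid A of fat and macrophages, was at 140 to 308 CPM in KPC and at 113, 13.1, 35.1 and 850 CPM in KPC IL6KO (-0.12 ± 0.98). Hp, which encodes haptoglobin, was at 1707 to 6526 CPM and 1785 to 6082 CPM (-0.09 ± 0.63). Orm1 and Orm3, the orosomucoids, did not overlap and were lower in KPC, with Orm3 at 0 to 0.263 CPM against 1.07 to 22.8 CPM (likelihood ratio FDR 0.0253). Of the 25 genes on this list 10 were set apart, Orm3 among them. Liver genes took 0.000259% to 0.00143% of the counts in KPC and 0.000479% to 0.0293% in KPC IL6KO, with the highest share in pad 6. Lcn2, lipocalin 2, is named with this group but followed Gpx5 (Pearson's r = 0.956 over the 12 libraries), with 4437 CPM in KPC IL6KO 6 and 49.6 to 87.1 CPM in pads 5, 7 and 8. The metallothionein Mt2 was at 185 to 1153 CPM in KPC and 133 to 474 CPM in KPC IL6KO (0.82 ± 0.55). Of 25 acute phase genes 1 was higher and 3 lower in KPC without overlap, against 0.637% and 3.69% of all genes. The median of the 25 was -0.09, or 0.31 with epididymis covariates.

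**Figure D4:**
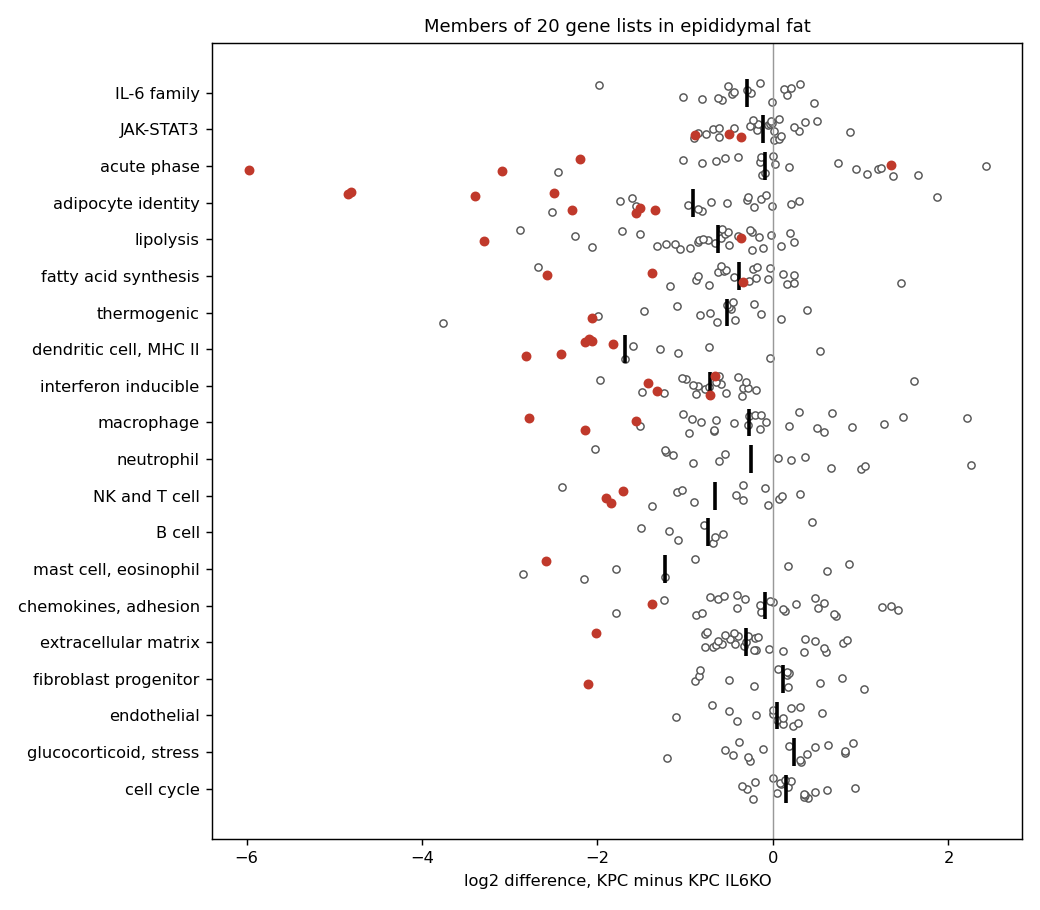
Log2 difference (KPC minus KPC IL6KO) of every measured member of 20 gene lists in fat. Points are genes, filled red where the 4 KPC and 4 KPC IL6KO values do not overlap, and bars are list medians. Dendritic cell genes have the lowest median (-1.69), and the medians of the IL-6 family, JAK-STAT3 and acute phase lists are -0.3, -0.11 and -0.09.

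The quadriceps of mice bearing the same tumors gave a reference for IL-6 signaling genes. In 1 fit of all 23 libraries over the 12599 genes in both tables, the difference between KPC and KPC IL6KO was itself different in fat from muscle for 3981 genes, higher in fat for 1819 (14.4%) and lower for 2162 (17.2%). Of 56 IL-6 family, JAK-STAT3 and acute phase genes 22 were called, 9 higher and 13 lower in fat. The values within each tissue that follow come from a fit of that tissue alone, so their difference can depart from that of the joint fit. Il6ra differed by 5.18 ± 0.32 in muscle and by -0.25 ± 0.22 in fat (fat minus muscle -5.28 ± 0.36, quasi-likelihood FDR 3.07e-08). A difference between the tissues was also called for Mt2 (7.24 ± 0.63 in muscle; fat minus muscle -6.28 ± 0.84, FDR 1.95e-05) and for Cebpd, a transcription factor of the acute phase (4.17 ± 0.48 in muscle and -0.02 ± 0.56 in fat, FDR 0.000454). For Stat3 (fat minus muscle -0.53 ± 0.33, FDR 0.221) and Socs3 (0.12 ± 0.74, FDR 0.917) no difference between the tissues was called. H2-Ab1 was lower in KPC in both tissues, by -1.87 ± 0.27 in muscle (quasi-likelihood FDR 9.69e-05) and -2.15 ± 0.45 in fat, and the difference between them was -0.13 ± 0.55 (FDR 0.877). The libraries of the tissues carried other animal codes and stood in separate tables, so the tissue cannot be told apart from the preparation.

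**Figure D5:**
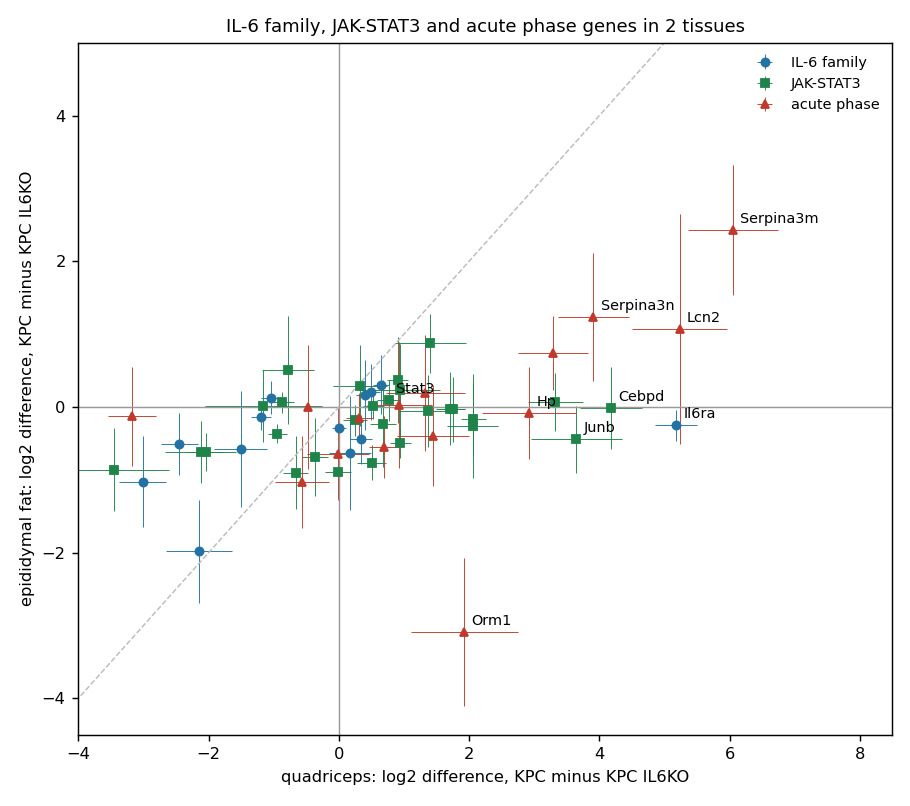
Log2 difference (KPC minus KPC IL6KO) with SE of IL-6 family, JAK-STAT3 and acute phase genes in quadriceps (horizontal axis) and epididymal fat (vertical axis), for genes in both tables. The dashed line marks equal differences, and Il6ra and Cebpd lie far to the right at about 0 in fat.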

How the data were processed

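RNA of epididymal fat (12 libraries, 4 per group) and quadriceps (11 libraries) was sequenced, and samples were grouped by title. The authors aligned paired reads to mm10 with STAR, assigned them to genes with featureCounts 1.5.1, and deposited raw counts per gene without normalization, with genes of few counts absent by a rule not stated. Library kit names differ between the paper's methods and the labels. Counts were normalized by TMM, and the 3 fat groups were fitted together with edgeR 4.0.16 (quasi-likelihood test, filterByExpr, which removed 0 genes; R 4.3.3). DESeq2 1.42.0 and edgeR's likelihood ratio test were alternatives. p-values were adjusted by Benjamini-Hochberg over all genes. Log2 CPM used a prior count of 2. Named genes were fixed genes, the extremes of each list, and the 10 largest differences without overlap in each direction (5 for genes set apart) whose mean log2 CPM was 1 or more, and the rule on genes called by every test named 0. Members and lists were chosen with earlier results of these data known. The pipeline was tested on simulated data. These had less spread between pads than the real pads and no adjoining tissue, so that test does not cover the conditions here. Same-group libraries were not duplicates (chi-square per degree of freedom at least 84.8). Each library is 1 mouse. Some items are not reported here.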

Additional observations from a re-analysis of the deposited data

Results flagged for a closer look

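In 12 of 184 groups of 4 pads tested over the named genes, 1 pad stood apart by Dixon's criterion, which chance meets in about 1 in 20 groups. KPC IL6KO 6 stood apart for Lcn2 (4437 CPM against 49.6 to 87.1 CPM in the other pads of its group), Klrb1c (481 against 0.886 to 1.25 CPM), H2-Ab1 (76 against 179 to 210 CPM) and Mmp3 (0.411 against 6.42 to 9.29 CPM). KPC 5 stood apart for Il6st (293 against 170 to 182 CPM), Pparg (64.8 against 26 to 28.4 CPM), Jak3 (37.3 against 24.7 to 26.4 CPM) and Atp2a1 (0.905 against 0.358 to 0.404 CPM). KPC IL6KO 7 stood apart for Nnat (933 against 162 to 200 CPM) and Angptl7 (0.832 against 1.78 to 2.04 CPM). KPC IL6KO 8 stood apart for Mgp (170 against 113 to 120 CPM) and KPC 7 for Gm6792 (1020 against 1286 to 1340 CPM).

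Among the 18 genes of the fixed list tested for a difference between tissues, the KPC minus KPC IL6KO difference was lower in fat than in muscle for 3, by edgeR's quasi-likelihood test. Fat minus muscle was -5.28 for Il6ra, -6.28 for Mt2 and -2.89 for Hp. By the same test 2162 of all 12599 genes (17.2%) were lower in fat, so 3 of 18 is near the share of all genes.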

How the results depend on the processing

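No gene was called by edgeR's quasi-likelihood test under RLE normalization, other count filters, robust estimation, covariates, or without any 1 pad (0 to 0 calls in each direction). The likelihood ratio test called 7 higher and 59 lower, DESeq2 19 higher and 106 lower, and the newer quasi-likelihood fit 1 higher (Tff2). Same-numbered KPC and KPC IL6KO pads deviated with correlations of 0.251, 0.424, 0.65 and -0.0276. The 4 correlations did not all exceed 0.1, and 3 of 4 KPC pads and 2 of 4 KPC IL6KO pads correlated best with their own number, a hint from the data and not the design, so the numbers were not used as pairs. With a replicate block 0 genes were called and 138 higher and 682 lower had an unadjusted p under 0.05. Under that block the differences of Stat3 (-0.0017), Saa3 (1.01), Dgat1 (-0.0093) and Klrb1c (4.63) reversed.

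With epididymis covariates the direction reversed for Il6st (0.18), Stat3 (-0.033), Bcl3 (0.96), Saa3 (2.01), Lcn2 (-0.21), Hp (0.55), Pparg (0.061), Pnpla2 (0.48), Ucp1 (0.66), Adgre1 (0.20), Adam10 (-0.17), Jak3 (0.48), Prdm16 (-0.76), Padi4 (0.086), Il7r (0.54), Itgae (-0.32), Pdgfra (-0.15) and Mcm2 (0.14). With the adipocyte covariate, added after seeing the data, it reversed for Saa3 (0.35), Lcn2 (-0.17), Hp (0.75), Adipoq (0.0021, itself part of that covariate), Pparg (0.13), Pnpla2 (1.06), Lipe (0.33), Pck1 (0.32), Gpx5 (-0.71), Adam10 (-0.19), Prdm16 (-0.57), Il7r (0.031) and Itgae (-0.094). With KPC IL6KO 5 and 7 as the only pads of their group, also added after seeing the data, it reversed for Saa3 (1.65), Ucp1 (0.39) and Klrb1c (6.66). Klrb1c also reversed to 0.013 under DESeq2 and under RLE, 0.042 with at least 10 counts in every library and 0.017 with the 8 libraries compared alone. Causes were not tested.

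Leaving out 1 pad in turn reversed some differences, which then ranged from -0.26 to 0.23 for Stat3, -0.056 to 0.61 for Socs3, -0.52 to 2.11 for Saa3, -0.49 to 0.20 for Hp, -1.02 to 0.35 for Pnpla2, -4.68 to 0.69 for Ucp1, -0.016 to 1.19 for Mt2, -0.54 to 0.53 for Dgat1, -0.17 to 0.85 for Prdm16, -0.47 to 6.77 for Klrb1c and -0.53 to 0.21 for Mcm2. The lowest or highest of these came without KPC 5 for Stat3, Hp, Pnpla2, Ucp1, Mt2 and Dgat1. At an unadjusted p under 0.05 the counts were 67 higher without KPC 5, 86 higher without KPC 6, 210 higher without KPC 7, 271 higher without KPC IL6KO 5 and 948 higher without KPC IL6KO 6. The common dispersion corresponded to a coefficient of variation of 63.5% between pads, which limits what 4 pads a group can show.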

Other observations

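Cell cycle genes were higher in KPC for 14 of 18, with a median log2 difference of 0.15, no gene without overlap and none at an unadjusted quasi-likelihood p under 0.05. Without KPC IL6KO 5 the median was 0.98, and with epididymis covariates it was 1.79 with 10 of 18 members higher at an unadjusted p under 0.05. The fit with epididymis covariates had 855 of all 16962 genes higher at that p. Endothelial genes (15, median 0.05) and glucocorticoid and stress genes (16, median 0.24) likewise held no gene without overlap. All 12 testis germ cell genes were higher in KPC (median 0.58), at 0.0292% to 0.156% of the counts against 0.000386% to 0.108% in KPC IL6KO, and the groups overlapped.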
